A study of Mus musculus with 6 samples.

Results

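The genes described here encode microtubule motors and the proteins that couple mitochondria to them: the dynein heavy chain Dync1h1, the dynactin subunits Dctn1, Dctn2 and Dctn4, the kinesins Kif1b and Kif5b, the Miro GTPases Rhot1 and Rhot2, and the adaptors Trak1 and Trak2. These 10 genes of the 27179 in the count files were found by symbol. They share a role and were partly chosen on the contrast below, because Dctn1 was lower in miDrp1KO muscle. Their differences between the groups are therefore given as a description, and no support is drawn from a test of them. RNA-seq of quadriceps muscle was made from 3 control and 3 miDrp1KO libraries of mice on a normal chow diet. The lowest count of any of the 10 genes was 589, all of them passed the expression filter, and none was lost or kept through 1 group alone.

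Both groups descend from floxed Drp1 mice, in which Dnm1l, the gene of the mitochondrial fission GTPase Drp1, can be removed by Cre. The control libraries (replicates B, C and D) are labelled Control f/f, while the methods describe control mice with 1 or 2 floxed alleles. The miDrp1KO libraries (replicates A, E and F) also carried HSA-MerCreMer, a tamoxifen-inducible Cre driven by the human skeletal actin promoter, ACTA1, which is meant to act in muscle fibres and not in the other cells of the tissue. Both groups received tamoxifen for 4 days at 3 months of age, and the study places these libraries 3 weeks post-Dnm1l deletion. The methods name male mice for the chow diet and for the experiments after a first comparison of the sexes, and the labels give neither the sex of these 6 mice nor any pooling of animals. Separate samples are known only by their titles, so p-values measure the spread between these libraries.

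Cytoplasmic dynein carries cargo towards the minus ends of microtubules, and most kinesins carry it towards the plus ends. Dynactin is a large complex that joins dynein to its cargo and makes long runs possible. Its Dctn1 subunit, p150Glued, binds dynein and microtubules, Dctn2 (dynamitin) holds the shoulder of the complex together, and Dctn4 sits at its pointed end. Mitochondria are coupled to both kinds of motor by the Miro proteins of the outer membrane and by the TRAK adaptors. In muscle fibres the microtubule lattice also positions nuclei and membranes. The question put to the data was how the RNA of this machinery compares between control and miDrp1KO muscle.

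Promoter sequences are shown first for the dynein and dynactin genes, whose members differed most from each other, and for Kif1b, the member with the highest level. RefSeq start sites on GRCm38.p6 gave 13 windows of 300 bases for 8 of the 10 genes, and those of Kif5b and Dctn4 were not used here. The 250 bases before the start site are printed 5′ to 3′ on the strand of the gene, with matches on either strand of 3 short motifs, spelled out after the sequences, in capitals.
Dync1h1, chr12:110601145-110601394, plus strand: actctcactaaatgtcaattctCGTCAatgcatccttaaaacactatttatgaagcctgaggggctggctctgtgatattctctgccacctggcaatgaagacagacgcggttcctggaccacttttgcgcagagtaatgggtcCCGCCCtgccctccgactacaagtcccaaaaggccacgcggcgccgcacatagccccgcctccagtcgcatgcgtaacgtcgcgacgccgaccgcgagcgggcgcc
Dctn1 window 1, chr6:83179339-83179588, plus strand: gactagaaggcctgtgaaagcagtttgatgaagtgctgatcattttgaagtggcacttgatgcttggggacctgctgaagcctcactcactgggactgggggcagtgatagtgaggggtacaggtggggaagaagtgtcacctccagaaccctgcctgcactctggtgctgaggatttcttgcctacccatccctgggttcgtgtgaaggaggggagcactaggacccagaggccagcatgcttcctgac
Dctn1 window 2, chr6:83185696-83185945, plus strand: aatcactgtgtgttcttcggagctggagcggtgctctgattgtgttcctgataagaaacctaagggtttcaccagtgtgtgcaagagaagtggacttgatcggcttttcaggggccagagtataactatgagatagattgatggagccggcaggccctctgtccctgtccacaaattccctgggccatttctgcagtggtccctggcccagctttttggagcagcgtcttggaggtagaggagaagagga
Dctn2, chr10:127266012-127266261, plus strand: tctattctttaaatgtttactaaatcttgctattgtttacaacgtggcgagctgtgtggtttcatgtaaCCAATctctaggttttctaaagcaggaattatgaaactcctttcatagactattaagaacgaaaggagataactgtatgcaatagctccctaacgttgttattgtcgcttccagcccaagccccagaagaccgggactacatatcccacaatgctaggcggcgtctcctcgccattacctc
Kif1b window 1, chr4:149307734-149307983, minus strand: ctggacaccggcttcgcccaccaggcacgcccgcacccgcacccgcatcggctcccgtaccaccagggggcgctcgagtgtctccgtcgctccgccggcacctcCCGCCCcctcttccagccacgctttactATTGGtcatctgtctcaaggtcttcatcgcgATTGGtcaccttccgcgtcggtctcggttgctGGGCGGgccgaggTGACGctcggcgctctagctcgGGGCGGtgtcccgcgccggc

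Both Dctn1 windows lie inside the gene and held none of the motifs searched, with 3 and 7 CpG dinucleotides per 300 bases. The gene itself starts at chr6:83165909, before both windows. No window covered that start, so these counts do not describe the sequence there. The Dync1h1 window held 30 CpG, the Kif1b window 40 and the Dctn2 window 11. Among 32851 windows of this length over all genes, 35.7% held GGGCGG (the GC box), beside 8 of the 13 windows here, which belong to 6 of the 8 genes. CCAAT (the CAAT box) was in 37.4% of all windows and in 4 of the 13 here. TGACG, the core of a cAMP response element, was in 20.8% of windows and in 6 of the 13. The whole element TGACGTCA, which contains that core, was in 1.79% of windows and in 1 of the 13, at Trak1. TATAAA, in 13.6% of all windows, and AAAGGTCA, the site named NBRE that NR4A receptors bind, in 1.51%, were in none of the 13. These are matches of letters on both strands and not binding sites.

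Dnm1l, the deleted gene, was measured at 156, 114 and 140.3 CPM (counts per 1000000 counts, with library sizes scaled by TMM) in controls B, C and D and at 70.6, 81.3 and 66.2 CPM in miDrp1KO replicates A, E and F. Every miDrp1KO library was below every control library, with a log2 fold change of -0.91 (SE 0.18). Its adjusted p was 0.362 (edgeR quasi-likelihood test, Benjamini-Hochberg over the 16483 genes tested), and the count covers the whole gene, not the deleted part alone. Over all genes, 2 of 16483 passed the threshold of 0.05, or 0.0121% (edgeR). The libraries held 13989588 to 62042255 counts. They also differed in composition. Ribosomal RNA took 23.0%, 1.48% and 24.4% of counts in miDrp1KO replicates A, E and F against 3.36% to 15.6% in control libraries, and the TMM factor of miDrp1KO replicate E was 1.42 against 0.84 to 1.04 in the others.

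All 10 genes were lower on average in miDrp1KO than in control muscle when libraries were scaled by TMM. Their median log2 fold change was -0.34, where the median of all tested genes was 0.02 and 48.0% of them were lower. Dctn1 was the lowest at -1.06, followed by Kif1b, Dync1h1 and Trak1 at -0.62 to -0.59, Kif5b and Rhot2 at -0.35 and -0.33, Dctn4 and Trak2 at -0.21 and -0.20, and Dctn2 and Rhot1 close to 0. In 4 of the 10 every miDrp1KO library lay below every control library, which held for 10.3% of all tested genes, and in none did every miDrp1KO library lie above, against 7.67% of all genes. The adjusted p was under 0.05 for none of the 10 by edgeR and for none by limma voom (0.00607% of genes called), and for Dctn1 alone by DESeq2 (2.55% of the 4431 genes with an adjusted p). At an unadjusted p under 0.05, 4 of the 10 were lower and none higher, where 1025 of all tested genes (6.22%) were lower and 771 (4.68%) higher. Nothing is read from these counts, since the contrast was used to choose the genes. In bulk muscle, fewer cells of a type and less RNA per cell cannot be told apart.

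**Figure D1:**
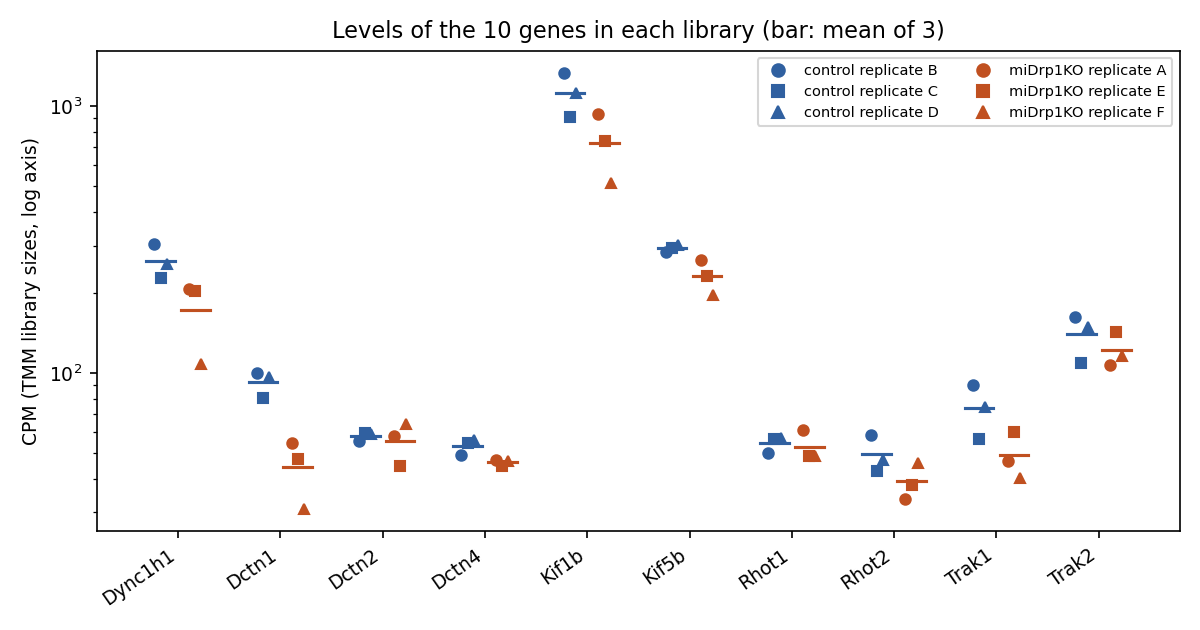
Level of each of the 10 genes in each library, in CPM on a log axis, with 3 control libraries in blue, 3 miDrp1KO libraries in orange and a bar at each mean of 3. Kif1b is the highest gene in every library, and the orange points of Dctn1, from 30.8 to 54.6 CPM, all lie below the blue points, from 80.8 to 100.1 CPM.

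The scale matters for these signs. The 10 genes together made up 0.209%, 0.186% and 0.214% of all counts in controls B, C and D, and 0.153%, 0.227% and 0.126% in miDrp1KO replicates A, E and F. Thus replicate E had the highest raw share of the 6 libraries, and its TMM-scaled sum of 1604 CPM was below the control range of 1898 to 2490 CPM. With total counts as library sizes the median of all genes moved to 0.26, the median of the 10 genes was -0.093 and 6 of them were lower. With ribosomal RNA genes left out of the totals these values became 0.37, 0.015 and 5. A scaling shifts all genes nearly alike, so the position of the 10 genes relative to the median of all genes barely depends on it. Their median was -0.36 relative to that median, and all 10 were below it. That position does not settle the signs. Nothing is read from it, since the contrast was used to choose the genes. As CPM of total counts, Dctn1 was the only one of the 10 whose groups did not overlap, at 84.0, 79.3 and 93.2 in control and 46.2, 67.5 and 32.1 in miDrp1KO libraries. On that scale every miDrp1KO library lay below every control library for 1.19% of all tested genes and above for 8.03%, and nothing is read from the count, since Dctn1 is the gene behind the choice.

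The motor of the minus-end pathway was lower on average in miDrp1KO muscle when libraries were scaled by TMM. Dync1h1 (Entrez 13424, chr12:110601395-110666944 on GRCm38, as all gene positions here) encodes the heavy chain that holds the motor domain of cytoplasmic dynein. It was measured at 303, 228 and 257 CPM in controls B, C and D and at 206, 202 and 108 CPM in miDrp1KO replicates A, E and F. The groups did not overlap, and replicate F was well below the others. The means were 263 ± 38.2 and 172 ± 55.5 CPM (SD, n = 3 each), or 34.5% lower, with a log2 fold change of -0.61 (SE 0.25). Without replicate F the log2 fold change was -0.34, the smallest of those with 1 library left out. As CPM of total counts the groups overlapped, with replicate E at 286 above the control range of 223 to 255.

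Among the dynactin subunits, Dctn1 stood apart from Dctn2 and Dctn4. Dctn1 (Entrez 13191, chr6:83165909-83200118) was measured at 100.1, 80.8 and 96.3 CPM in controls B, C and D and at 54.6, 47.7 and 30.8 CPM in miDrp1KO replicates A, E and F. The lowest control library was well above the highest miDrp1KO library. The means were 92.4 ± 10.2 and 44.4 ± 12.2 CPM, or 52.0% lower, with a log2 fold change of -1.06 (SE 0.22), and 0.443% of all tested genes had a lower value. Dctn1 is the gene behind the choice, so that share restates the choice and is no support. With 1 library left out at a time its log2 fold change ran from -1.21 (without miDrp1KO replicate A) to -0.83 (without miDrp1KO replicate F). Dctn2 (Entrez 69654, chr10:127266262-127281959) was measured at 55.4, 59.3 and 59.1 CPM in control and at 57.9, 44.9 and 64.2 CPM in miDrp1KO libraries. Its groups overlapped, and both the lowest and the highest library were miDrp1KO. The log2 fold change of Dctn2 was -0.058 (SE 0.17), and it turned to 0.034 with upper quartile normalization. Dctn4 (Entrez 67665, chr18:60526154-60558766) was measured at 49.4, 54.7 and 55.9 CPM in control and at 47.3, 44.8 and 46.7 CPM in miDrp1KO libraries. The miDrp1KO libraries lay just below the control ones, by 13.3% on average, with a log2 fold change of -0.21 (SE 0.15) that became 0.028 with total counts as library sizes.

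**Figure D2:**
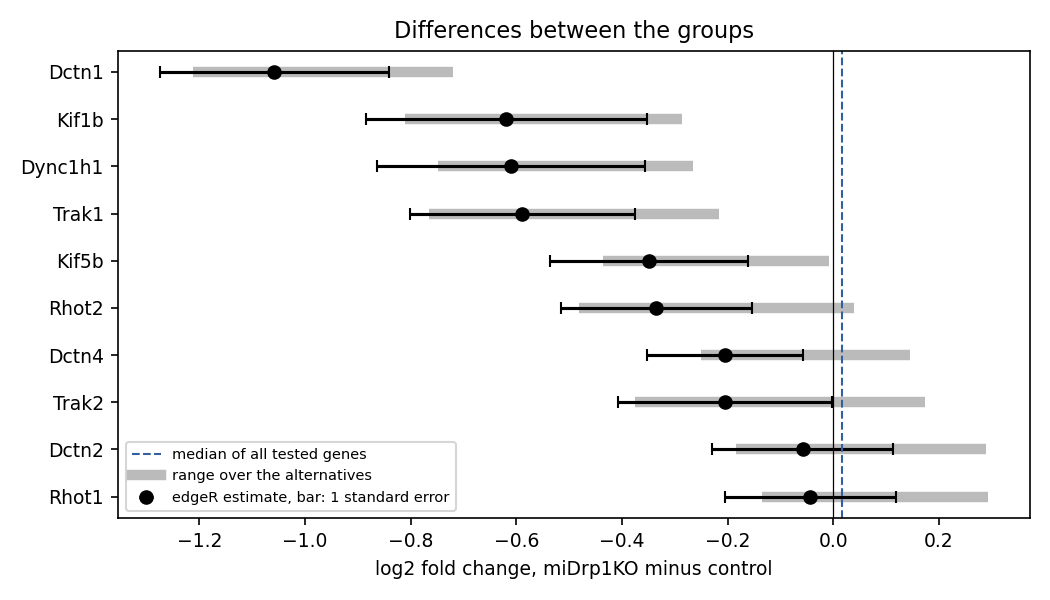
Log2 fold change of each gene between the groups (miDrp1KO minus control, points, with 1 standard error as a bar), the range over 18 alternative settings in grey, and the median of all tested genes as a dashed line. The grey range of Dctn1 ends at -0.72, while those of Rhot2, Dctn4, Trak2, Dctn2 and Rhot1 cross 0.

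Ratios within a library do not depend on how libraries are scaled. The ratio of Dctn1 to Dctn2 counts was 1.81, 1.36 and 1.63 in controls B, C and D and 0.943, 1.06 and 0.480 in miDrp1KO replicates A, E and F. Each control library therefore held more Dctn1 than Dctn2 counts, and 2 of the 3 miDrp1KO libraries held fewer. The mean log2 difference of this ratio was -1.02, and from -1.24 to -0.67 with 1 library left out. Against Actr1a, which encodes the main subunit of the dynactin filament, the ratio of Dctn1 was 2.07, 1.89 and 1.91 in control and 1.33, 1.21 and 0.671 in miDrp1KO libraries. Against Dync1h1 it was 0.330, 0.355 and 0.375 in control and 0.265, 0.236 and 0.285 in miDrp1KO libraries. In all 3 ratios the groups did not overlap. Since each has Dctn1, the gene behind the choice, as numerator, they restate its level beside each partner and are no separate evidence.

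The plus-end motors were lower on average as well. Kif1b (Entrez 16561, chr4:149176319-149307773) encodes a kinesin-3 motor with an isoform that carries mitochondria, and it ranked 81 of all tested genes by mean CPM. It was measured at 1336, 914 and 1116 CPM in control and at 932, 743 and 517 CPM in miDrp1KO libraries. The groups overlapped, since miDrp1KO replicate A was above control replicate C. The means were 1122 ± 211 and 730.4 ± 208 CPM, with a log2 fold change of -0.62 (SE 0.27) that was -0.40 without miDrp1KO replicate F and -0.38 with total counts as library sizes. Kif5b (Entrez 16573, chr18:6201005-6241524) encodes the widely expressed heavy chain of kinesin-1, which binds TRAK adaptors. It was measured at 284, 295 and 301 CPM in control and at 264, 232 and 195 CPM in miDrp1KO libraries. Control libraries lay close together and all miDrp1KO libraries were below them, with a log2 fold change of -0.35 (SE 0.19), or -0.22 without miDrp1KO replicate F. That order rested on the scale: with total counts as library sizes the groups overlapped and the log2 fold change was -0.12. With ribosomal RNA genes left out of the totals Kif5b was at -0.0088. The ratio of Kif1b to Kif5b was 4.70, 3.10 and 3.71 in control and 3.52, 3.21 and 2.65 in miDrp1KO libraries, which overlapped.

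The Miro genes encode GTPases anchored in the outer mitochondrial membrane. When libraries were scaled by TMM, Rhot1 was near its control level and Rhot2 was 20.7% lower on average. Rhot1 (Entrez 59040, chr11:80208610-80267907) was measured at 50.1, 56.4 and 57.0 CPM in control and at 61.0, 49.0 and 48.7 CPM in miDrp1KO libraries. Replicate A was the highest and replicate F the lowest of the 6. The log2 fold change of -0.043 (SE 0.16) changed sign when control replicate D, miDrp1KO replicate E or miDrp1KO replicate F was left out (0.010, 0.0078 and 0.032). Rhot2 (Entrez 214952, chr17:25838457-25844525) was measured at 58.7, 42.9 and 47.0 CPM in control and at 33.8, 38.2 and 45.9 CPM in miDrp1KO libraries. The groups overlapped, with a log2 fold change of -0.33 (SE 0.18) that was -0.17 without control replicate B and -0.21 without miDrp1KO replicate A. With total counts as library sizes Rhot2 was at -0.069, and with ribosomal RNA genes left out of the totals it turned to 0.039. Rhot2 shares 3307 bases on its own strand with the protein-coding model Gm20683, so its counts are uncertain. The ratio of Rhot1 to Rhot2 was 0.854, 1.31 and 1.21 in control and 1.81, 1.28 and 1.06 in miDrp1KO libraries, with overlapping groups.

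The TRAK adaptors, which link Miro to kinesin-1 and dynein, had unlike average differences between the groups, and whether they differ from each other was not tested. Trak1 (Entrez 67095, chr9:121297502-121474919) was measured at 90.4, 56.8 and 74.6 CPM in control and at 46.9, 60.3 and 40.3 CPM in miDrp1KO libraries. Only control replicate C lay within the miDrp1KO range, and the log2 fold change was -0.59 (SE 0.21), or -0.29 with total counts as library sizes. Trak2 (Entrez 70827, chr1:58900449-58974345) was measured at 163, 109 and 148 CPM in control and at 107, 142 and 116 CPM in miDrp1KO libraries. These groups overlapped widely, with a log2 fold change of -0.20 (SE 0.20). Leaving out control B or miDrp1KO A brought it to -0.065 or -0.096, and leaving out control C or miDrp1KO E to -0.38 or -0.33. Within libraries, the ratio of Trak1 to Trak2 was 0.556, 0.519 and 0.503 in control and 0.439, 0.424 and 0.348 in miDrp1KO libraries. Every miDrp1KO library was below every control library, with a mean log2 difference of -0.39, and of -0.45 to -0.28 with 1 library left out. This is 1 of several pairs compared, of genes partly chosen on the contrast, and nothing is read from the separation. In control libraries, where both genes were highest in replicate B and lowest in replicate C, the ratio was 0.526 ± 0.0275, and in miDrp1KO libraries it was 0.404 ± 0.0490.

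**Figure D3:**
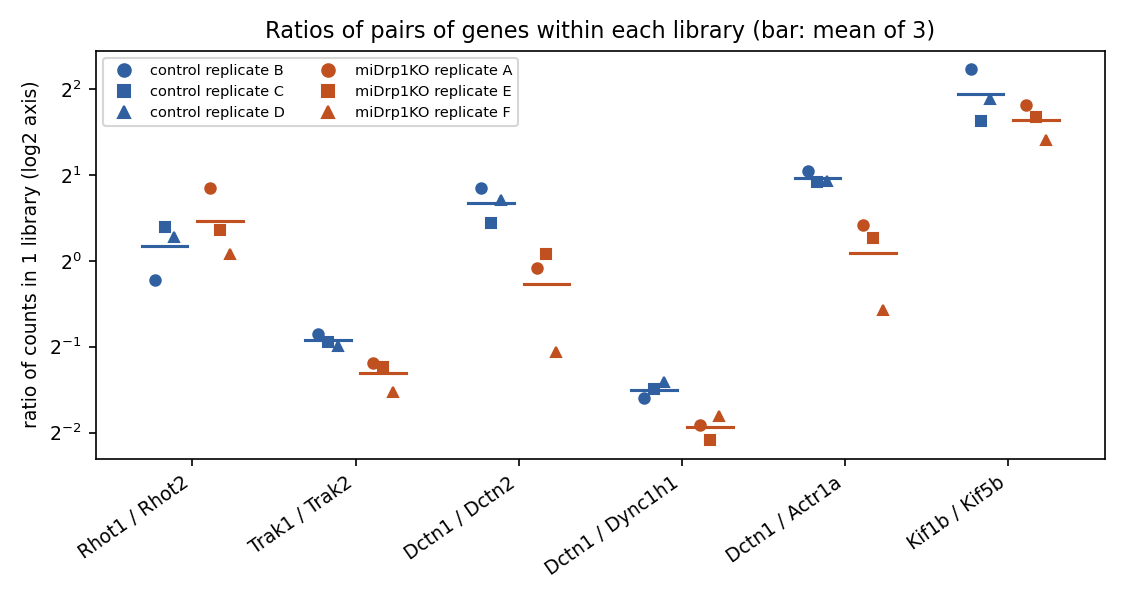
Ratio of the counts of 2 genes within each library, on a log2 axis, for 6 pairs, with control libraries in blue, miDrp1KO libraries in orange and a bar at each mean of 3. The groups separate for Trak1 to Trak2 and for Dctn1 to Dctn2, Dync1h1 and Actr1a, and overlap for Rhot1 to Rhot2 and Kif1b to Kif5b.

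Levels were compared between genes per kb of exon. In control muscle Kif1b had the highest level at 63.7 ± 12.0 CPM per kb (SD, n = 3), followed by Kif5b at 36.8 ± 1.06. Trak2 (19.8 ± 3.89), Dync1h1 (16.8 ± 2.44) and Dctn1 (14.2 ± 1.57) came next, and neighbours among these did not differ beyond their spread. Dctn2 (12.1 ± 0.465) and Rhot2 (11.2 ± 1.85) overlapped too. Rhot1 (7.35 ± 0.514), Trak1 (5.88 ± 1.34) and Dctn4 (4.60 ± 0.299) were the lowest, and each overlapped its neighbour. Control muscle thus held more Trak2 than Trak1 and more Kif5b than any member other than Kif1b on this scale. In miDrp1KO muscle Dctn1, at 6.82 ± 1.88 CPM per kb, ranked 8 in place of 5, and Dctn2, at 11.6 ± 2.05, ranked 4 in place of 6. In miDrp1KO libraries Dctn1 overlapped Rhot1 and Rhot2, and Dctn2 overlapped Dync1h1, so they do not differ from these neighbours beyond the spread. The exon lengths came from all annotated isoforms together, and a fibre may use only some of them.

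Library by library, miDrp1KO replicate F was the lowest of the 6 libraries for 6 of the 10 genes and control replicate B the highest for 6. Replicates A and F held the most ribosomal RNA of the 6 libraries and replicate E the least, and the part of ribosomal RNA in the levels was not tested beyond the fit with its share as a covariate, in which the median of the 10 genes was -0.36. Exon length and GC content also differ among the genes. Dctn1 has 6.51 kb of exon at 58.8% GC, while Dctn2 has 4.79 kb at 48.1%. Over all tested genes with both values, the 1484 genes with the highest GC, 57.7% to 72.8%, had a median log2 fold change of 0.02, and the 1483 genes of 6.243 to 7.666 kb had one of -0.018. The 1484 longest genes, which include Dync1h1, Kif1b, Trak1 and Dctn4, had a median of -0.05. After a correction for length and GC, Dctn1 had a log2 fold change of -1.03.

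The wider microtubule system was described from 6 lists of other genes, none of which holds any of the 10. Of 111 listed symbols, among them both names of 2 genes, 106 genes were tested, and none passed an adjusted p of 0.05 by edgeR. At an unadjusted p under 0.05, 16 were lower and 4 higher, or 15.1% and 3.77%, beside 6.22% and 4.68% of all genes. Among the 7487 tested genes at least as long as the shortest of the 10, 8.35% were lower and 4.22% higher at that p. The lists were chosen with earlier results of these data known, so nothing is read from the counts of listed genes. The median log2 fold change of the 106 listed genes was -0.16, with 67 lower and 39 higher. With total counts as library sizes 40 of the 106 were lower, and 68 were below the median of all genes under that scaling and under TMM alike. With ribosomal RNA genes left out of the totals 27 of 107 tested were lower, and 69 were below the median of all genes. DESeq2 called 4 of the listed genes, Dynll2, Klc2, Kif1c and Kif13a, all lower, and limma voom none. Over all genes DESeq2 called 2.55% of the 4431 with an adjusted p, 95 lower and 18 higher, and limma voom 0.00607%. Not every listed gene had an adjusted p by DESeq2.

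The kinesin list had the lowest median at -0.28, with 15 of 19 tested genes lower. At an unadjusted p under 0.05, 6 were lower and 2 higher. Kif13a, a kinesin-3 that carries endosomes, was measured at 130.1, 107 and 120.8 CPM in control and at 78.2, 60.9 and 30.7 CPM in miDrp1KO libraries. Its log2 fold change of -1.08 (SE 0.30) had an adjusted p of 0.379 by edgeR with Benjamini-Hochberg adjustment, and of 0.0182 to 0.877 over the alternatives. Klc2, a light chain of kinesin-1, stood at -0.66 (adjusted p 0.362) and Kif3c, a kinesin-2, at -0.55 (adjusted p 0.379), both by edgeR. Their groups did not overlap. Chosen after their values were seen, Kif1c, a kinesin-3 close to Kif1b, was at 745 ± 65.7 CPM in control and 461 ± 85.6 CPM in miDrp1KO muscle. The 2 kinesins of the list with an unadjusted p under 0.05 and a higher mean were Kif5a and Kif1a, both at low levels. Kif5a went from 0.865 ± 0.122 to 1.98 ± 0.668 CPM and Kif1a from 1.30 ± 0.274 to 2.74 ± 0.901 CPM, with no overlap between groups and adjusted p of 0.380 and 0.379 (edgeR). Summed peripheral nerve markers were 46.1 to 63.3 CPM in control and 48.5 to 84.3 CPM in miDrp1KO libraries, and the part of nerve RNA in these low levels was not tested.

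The other dynein and dynactin genes had a median of -0.16, with 12 of 17 lower, 4 of them at an unadjusted p under 0.05 and none higher at that p. Dynll2, a light chain of dynein and of myosin V, was measured at 49.2, 38.3 and 42.9 CPM in control and at 27.2, 26.6 and 20.7 CPM in miDrp1KO libraries. The log2 fold change of Dynll2 was -0.81 (SE 0.17) with an adjusted p of 0.362 by edgeR with Benjamini-Hochberg adjustment, and of 0.0174 to 0.877 over the alternatives. Dync1li2, a light intermediate chain, was at -0.43 and Dctn6, a pointed-end subunit of dynactin, at -0.39 (adjusted p 0.407 and 0.436, edgeR). Other dynactin subunits, named after their values were seen, ranged more widely. Capzb, which caps the dynactin filament, was at -0.48 with no overlap between groups (adjusted p 0.450, edgeR), while Actr1a was at -0.16, Dctn5 at -0.20 and Dctn3 at 0.15. Dynein regulators and cargo adaptors had a median of -0.22, with 8 of 12 lower. The 3 of these with an unadjusted p under 0.05 were Rab11fip3 (-0.71), Bicd2 (-0.48), an adaptor that activates dynein, and Nde1 (-0.47), a partner of dynein and Lis1, with adjusted p of 0.387, 0.449 and 0.382 (edgeR). Rab11fip3 was at -0.42 without control replicate B and Bicd2 at -0.26 without miDrp1KO replicate F.

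**Figure D4:**
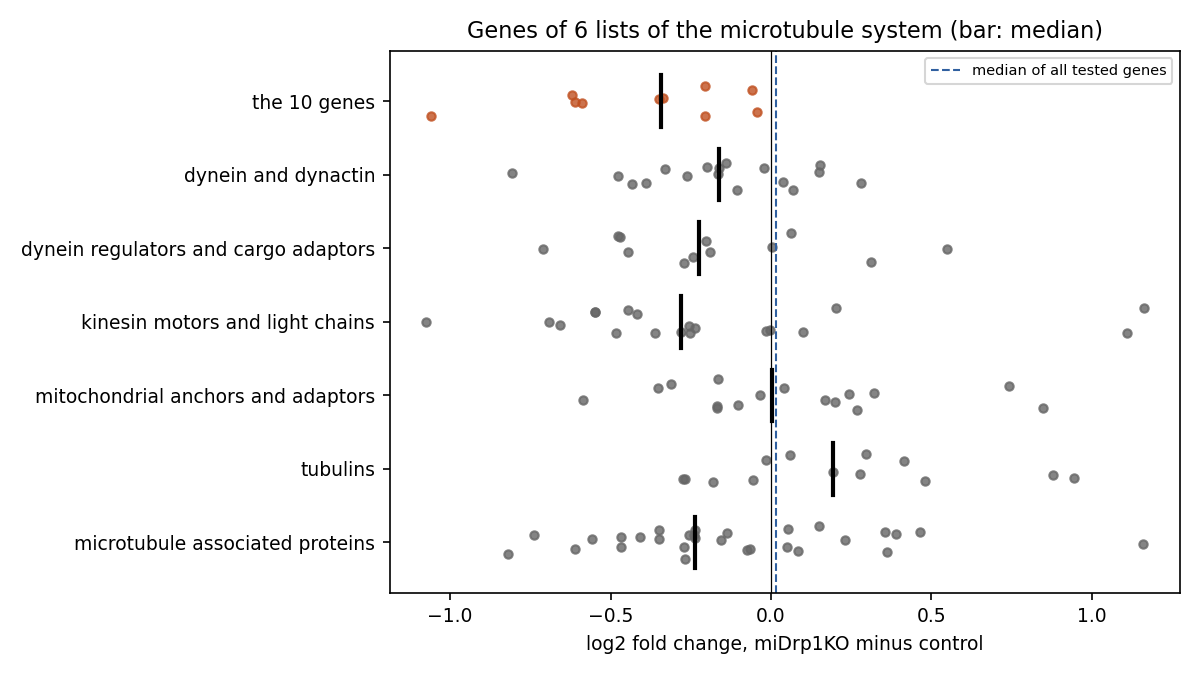
Log2 fold changes (miDrp1KO minus control) of the 10 genes and of the tested genes of 6 lists, 1 point per gene, with a bar at each median and the median of all tested genes as a dashed line. The medians of the dynein, regulator, kinesin and associated protein lists lie from -0.28 to -0.16, that of the anchors at 0.0042 and that of tubulins at 0.19.

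Mitochondrial anchors and adaptors other than Miro and TRAK were split evenly, with 8 of 16 lower and a median of 0.0042. Of those with a mean of at least 1 CPM, the 3 with the smallest p were Hdac6, a tubulin deacetylase, at -0.59, Fez2 at -0.35 and Mapk8ip3, a kinesin-1 adaptor, at -0.31 (adjusted p 0.392, 0.461 and 0.595, edgeR). Mapk8ip3 was at -0.099 without miDrp1KO replicate F and at -0.48 without E. Below that level, Disc1 and Hap1, named after their values were seen, were at 0.74 and 0.85 (adjusted p 0.556 and 0.564, edgeR), with every miDrp1KO library above every control library. Tubulins had a median of 0.19, with 8 of 13 higher and 1 higher at an unadjusted p under 0.05. Tubb4a was at 0.94, Tubb2a at 0.48 and Tubg1 at -0.27 (adjusted p 0.451, 0.533 and 0.627, edgeR). Without control replicate D Tubb4a was at 0.57 and Tubg1 at -0.16, without miDrp1KO replicate E Tubb2a was at 0.22 and Tubg1 at -0.14, and without control replicate C Tubb2a was at 0.28. The tubulins with the highest CPM, also named after their values were seen, were Tuba4a, at 554 ± 32.9 CPM in control and 489 ± 92.8 CPM in miDrp1KO muscle, and Tuba8, at 354 ± 27.8 and 294 ± 55.7 CPM. Microtubule associated proteins had a median of -0.24, with 19 of 29 lower. Camsap1, which binds microtubule minus ends, was at -0.82, Map4, the main structural associated protein of muscle, at -0.61 and Map1s at -0.47 (adjusted p 0.379, 0.436 and 0.482, edgeR). Without miDrp1KO replicate F Map4 was at -0.36 and Map1s at -0.27.

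The genes whose log2 CPM followed Dctn1 most closely across the 6 libraries were Ube3b (Pearson r 0.999), Setd6 (0.998), H2-T24 (0.997), Ehbp1l1 (0.995) and Hnrnph1 (0.995), of 13563 genes. Among the 9 other members r with Dctn1 was highest for Kif5b (0.953, rank 286 of those genes), Kif1b (0.947), Dync1h1 (0.937) and Trak1 (0.860) and lowest for Dctn2 (-0.032). The 45 pairs of members had a median r of 0.461, with 37 over 0. For deviations from the group means the median r was 0.233, with 25 over 0. These values are a description over 6 libraries, which fall into 2 groups and differ in depth and composition.

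Marker genes were summed to check the tissue, and the muscle fibre and adipocyte sums did not overlap between groups. Markers of muscle fibres summed to 227041 to 290585 CPM in control and 90466 to 213035 CPM in miDrp1KO libraries, with 9 of 10 lower and a median log2 fold change of -0.78. Among them Ttn was at 141256, 87773 and 138925 CPM in control and at 104112, 66485 and 26349 CPM in miDrp1KO libraries, and Myh4, the myosin of the fastest fibres, went from 57018 ± 6602 to 23265 ± 15013 CPM. Slow fibre markers summed to 480, 72.9 and 107 CPM in controls B, C and D and to 99.5, 793 and 713 CPM in miDrp1KO replicates A, E and F, with 8 of 8 higher and a median of 1.46. The 2 libraries highest in slow markers, miDrp1KO replicates E and F, were also the lowest for Dctn1, Kif1b, Dync1h1, Kif5b, Dctn4 and Rhot1. They were not the lowest 2 for Dctn2, Rhot2, Trak1 and Trak2, and replicate F was the highest library for Dctn2. Control replicate B had the highest slow markers of the controls. It was the highest of all libraries for Dctn1, Kif1b and Dync1h1, and the lowest control for Kif5b, Dctn4 and Rhot1. Slow markers of replicate A lay within the control range, and its Dctn1 was below every control library. This is 1 library and the gene behind the choice, and the part of fibre type was not tested by it. With slow fibre score in the model, the median log2 fold change of the 10 genes was -0.42 and that of Dctn1 was -1.01. In that fit Trak1, Rhot2 and Trak2 were at -0.70, -0.48 and -0.35, and Rhot1 was at 0.058.

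Markers of other cells were checked as well. Adipocyte markers, 6 of 6 lower, summed to 422 to 676 CPM in control and 280.5 to 399 CPM in miDrp1KO libraries. Macrophage markers, 6 of 8 higher, summed to 132 to 248 and 215 to 228 CPM, fibroblast and matrix markers, 6 of 7 higher, to 1264 to 1829 and 1422 to 2359 CPM, and endothelial markers, 3 of 7 higher, to 160 to 284 and 166 to 259 CPM. Peripheral nerve markers were higher in 7 of 10 tested, blood markers in 4 of 5, with sums of 47.4 to 273 CPM in control and 74.1 to 232 CPM in miDrp1KO libraries, and satellite cell markers in 3 of 5, with 24.1 to 28.2 and 22.8 to 28.2 CPM. No gene of these lists passed an adjusted p of 0.05 by edgeR, and no marker that passed the filter was at 0 in any library. The neuronal markers Nefl and Prph did not pass it. The part of fibre type or of other cells in the levels of the motor genes was not tested beyond these values.

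**Figure D5:**
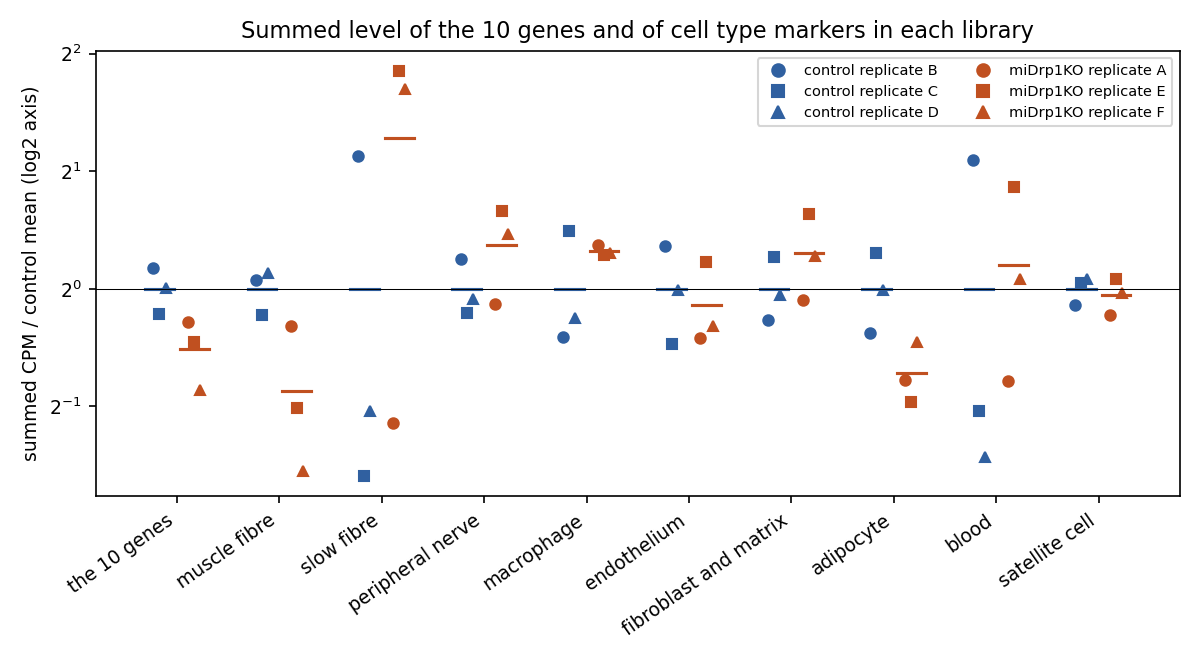
Summed CPM of the 10 genes and of 9 lists of cell type markers in each library, divided by the control mean, on a log2 axis, with control libraries in blue, miDrp1KO libraries in orange and a bar at each mean of 3. On this TMM scale the groups separate for the 10 genes, for muscle fibre markers and for adipocyte markers, while slow fibre markers spread over both groups. As a share of all counts the 10 genes were highest in miDrp1KO replicate E, at 0.227%. Kif1b, whose own groups overlap, is the largest part of their sum.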

How the data were processed

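Total RNA libraries of quadriceps muscle (TruSeq Stranded Total RNA with RiboZero Gold) were sequenced in pools, and which library was in which pool is not given in the sources used here. The deposited values are raw read counts for each gene and library, which the authors made with Rsubread on GRCm38. Their processing notes name DESeq2 1.30.0. How overlapping genes and strand were counted is not given, so Rhot2, Trak1 and genes with antisense partners (Dctn1, Dync1h1, Kif5b) are uncertain. Libraries were grouped by the genotype in the labels.

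The test was the edgeR 4.0.16 quasi-likelihood test under R 4.3.3 (filterByExpr, TMM, robust fit, Benjamini-Hochberg over 16483 genes, threshold 0.05). CPM used TMM library sizes, and log2 CPM a prior count of 2. The script was tested on simulated data. Alternatives included DESeq2 1.42.0 and limma 3.58.1 (voom). Members and lists were chosen with earlier results of these data known. The naming rule took the 10 members, Dnm1l, up to 3 genes of each list by smallest p with a mean of at least 1 CPM, and the 5 genes most like Dctn1 in Pearson correlation; a few other genes and markers were named after their values were seen. Lengths and GC came from GENCODE M21 (14833 tested genes, 90.0%, matched by Entrez identifier), and gene positions and promoters from RefSeq. Ribosomal RNA was summed over 37 genes.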

Additional observations from a re-analysis of the deposited data

How the results depend on the processing

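The number of genes called over the whole table was 2 by edgeR and depended on the tool and settings: 113 by DESeq2, 1 by limma voom, 8 with no filter on low counts, 1 to 7 with 1 replicate left out (7 without miDrp1KO replicate A, 1 without miDrp1KO replicate E or F). With alternatives chosen after seeing the data it was 45 with total counts as library sizes and 4 with total counts without ribosomal RNA genes. It was 4 with slow fibre score in the model and 1 with ribosomal RNA share in the model, both also chosen after seeing the data. The cause was not tested. Of the listed pathway genes 0 were called by edgeR and 4 by DESeq2, which alone called Dynll2, Klc2 and Kif13a. Over all genes DESeq2 called 2.55% of the 4431 with an adjusted p. The median of the 10 genes was -0.093 with total counts and 0.015 with total counts without ribosomal RNA genes, where the median of all genes was 0.26 and 0.37, and it was -0.42 to -0.25 in all other alternatives. Dync1h1, Dctn1, Kif1b, Kif5b and Trak1 were negative in all 18 alternatives, but Kif5b was only -0.0088 with total counts without ribosomal RNA genes. Dctn2 was 0.034 with upper quartile normalization and -0.15 (without miDrp1KO replicate F) to 0.078 (without miDrp1KO replicate E) with 1 library left out. Rhot1 was 0.044 with upper quartile normalization, -0.13 (without miDrp1KO replicate A) to 0.032 (without miDrp1KO replicate F) with 1 library left out, and 0.058 with the slow fibre covariate. With total counts Dctn2, Dctn4, Rhot1 and Trak2 were 0.15, 0.028, 0.17 and 0.091. With total counts without ribosomal RNA genes Dctn2, Dctn4, Rhot1, Rhot2 and Trak2 were 0.29, 0.15, 0.29, 0.039 and 0.17, and Fez2, Mapk8ip3 and Tubg1 were 0.0031, 0.043 and 0.073. No paired analysis was possible because control and miDrp1KO libraries share no replicate letter. With 3 libraries per group and a biological coefficient of variation of 0.252, Dnm1l itself, at -0.91, had an adjusted p of 0.362 by edgeR.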
